A study of Mus musculus with 12 samples.

Results

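Immediate early genes are the genes whose transcription rises first when a cell meets a growth factor, a cytokine or a stress, because the proteins that switch them on are already in the cell. The ERK, JNK and p38 kinases act on SRF with its ternary complex partners, which bind CArG boxes, and on CREB and ATF proteins, which bind the cAMP response element (CRE). The products are mostly short-lived transcription factors and feedback proteins, and their RNAs decay quickly once the signal ends. In mouse embryonic stem cells, ERK signalling favours exit from the naive state, and 2i medium holds cells there with an inhibitor of MEK, the kinase above ERK, and an inhibitor of GSK3.

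The 10 genes described here were picked by gene name as a class and are 10 of 39179 counted genes. They are Fos, Fosb, Jun and Junb, whose products are subunits of the dimeric factor AP-1, and the zinc finger factor genes Egr1 and Egr2. The others are Atf3 of the ATF/CREB family, Ier2, which encodes a nuclear protein, Zfp36, and the antiproliferative gene Btg2, also a p53 target. Zfp36 encodes tristetraprolin, a protein that marks AU-rich mRNAs for decay. All 10 had a row in the count table and in the table of TPM values, levels scaled by transcript length and library size.

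The RNA came from mouse embryonic stem cells in 12 total RNA libraries of 2 experiments on BMP signalling, with 25862573 to 37319846 counts per library. In the first, a BRE-GFP line (a BMP response element drives GFP) of mixed CBA and C57Bl/6 background grew in fetal calf serum (FCS) with Lif on feeders. It was sorted on SSEA1, a surface antigen of stem cells, and on GFP into BRE-negative and BRE-positive cells, 3 libraries each, taken in pairs at 3 times. In the second, Smad1/5 fl/fl cells (FL, 2 libraries) and Smad1/5 -/- cells (KO, 4 libraries) of mixed CD-1, 129/Ola and C57Bl/6 background grew in 2i with Lif on gelatin, unsorted as far as the labels say. They came from 2 parental lines, each giving 1 FL and 2 KO libraries, and the labels do not say which. All 12 libraries are of cells kept in Lif. The reporter and Smad1/5 experiments differ in line, strain, medium, feeders and sorting, which cannot be told apart here.

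Several known control elements of these genes lie just before their start sites, so the 250 bases upstream of the RefSeq start (GRCm38.p6) are shown for 4 members, chosen because they carry a CRE core, TGACGT, or a CArG box and span the range of responses below. Each reads 5′ to 3′ on the gene's strand. Capitals mark the CRE core on either strand, the TATA box TATAAA and the CArG box.
Fos, chr12:85473640-85473889, plus strand: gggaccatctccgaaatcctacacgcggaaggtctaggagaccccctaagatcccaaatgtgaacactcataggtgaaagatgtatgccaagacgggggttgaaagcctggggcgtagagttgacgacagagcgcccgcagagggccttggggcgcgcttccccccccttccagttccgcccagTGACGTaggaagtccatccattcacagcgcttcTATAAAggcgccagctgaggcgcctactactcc
Egr2, chr10:67537619-67537868, plus strand: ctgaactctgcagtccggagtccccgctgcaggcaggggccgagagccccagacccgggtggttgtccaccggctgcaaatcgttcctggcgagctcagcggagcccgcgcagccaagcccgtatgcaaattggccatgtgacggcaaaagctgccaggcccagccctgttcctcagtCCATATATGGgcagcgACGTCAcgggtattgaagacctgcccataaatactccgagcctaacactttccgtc
Zfp36, chr7:28379229-28379478, minus strand: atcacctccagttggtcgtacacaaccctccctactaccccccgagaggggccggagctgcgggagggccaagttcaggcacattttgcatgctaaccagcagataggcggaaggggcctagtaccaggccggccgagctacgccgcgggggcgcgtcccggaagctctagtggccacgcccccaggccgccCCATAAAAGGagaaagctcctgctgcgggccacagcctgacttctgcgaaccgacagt
Btg2, chr1:134079156-134079405, minus strand: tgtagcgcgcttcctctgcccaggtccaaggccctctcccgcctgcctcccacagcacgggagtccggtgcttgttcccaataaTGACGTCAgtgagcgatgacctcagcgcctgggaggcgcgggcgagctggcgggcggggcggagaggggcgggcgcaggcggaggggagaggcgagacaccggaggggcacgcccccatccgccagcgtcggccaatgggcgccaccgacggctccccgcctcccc
The CRE core of Fos begins 66 bases before the start and its TATA box 33 bases before. In Egr2 a CArG box begins 72 bases before the start and a CRE core on the opposite strand 56 bases before, with no shared base. Zfp36 has a CArG box 58 bases before the start. In Btg2 the core reads on both strands, from 166 and 164 bases before the start, as the overlapping arms of 1 palindrome. The RefSeq starts of Egr2 and Zfp36 lie inside the gene coordinates given below, so these 2 windows are not upstream of the whole gene. Egr2 had 5 RefSeq windows, of which 1 is shown.

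RefSeq windows were held for 8 of the 10 members, all but Egr1 and Ier2. The CRE core was in 4 of the 8 (Fos, Egr2, Atf3 and Btg2), against 6.47% of 32851 windows of the same length, and the CArG box in 2 of the 8 (Egr2 and Zfp36), against 1.47%. The GC box GGGCGG was in 6 of the 8 against 32.7%, and GGCGCC, a GC-rich motif bound by BMP-activated SMADs, in Fos, Fosb and Btg2 against 9.59%. TATAAA was in Fos alone (12.4% of windows), the ETS core CCGGAA in Zfp36 alone (12%), and the AP-1 motif TGANTCA in none of the 8 (6.75%). Both strands were searched, but only over these 250 bases, so sites outside the windows were not looked for. The lack of a CArG box in the Fos window therefore does not speak for sequence beyond it. A match is a run of letters, not a measured binding site, and CRE cores stood before genes as far apart in their response as Fos and Btg2.

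The members were all higher in the serum-grown reporter cells than in the 2i cultures, by between 1.43-fold for Btg2 and 86.6-fold for Fosb. Fos, Fosb, Egr1 and Egr2 differed by more than 32-fold, and the last 3 of these had at most 45 counts in any 2i library. Ier2 and Btg2 were well expressed in both. edgeR's quasi-likelihood test over all 12 libraries called 10 of 10 members higher at an adjusted p under 0.05, beside 67.8% of 17112 genes called in either direction and 33.7% called higher. With so many genes called, size says more than the call: 9 of 10 members were over 2-fold higher (16.2% of all genes), 7 over 4-fold (6.68%) and 4 over 32-fold (0.713%). The median log2 fold change was 3.17 for the members and 0.002 for all genes tested.

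**Figure D1:**
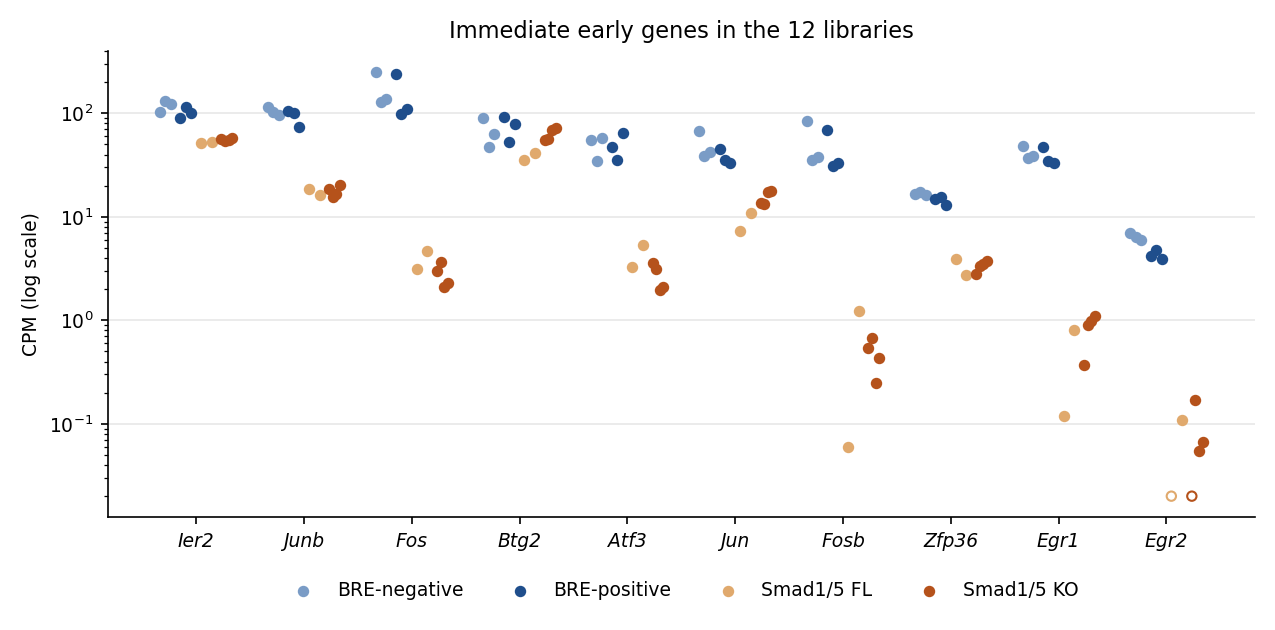
CPM (counts scaled to library size, log axis) of the 10 members in each library, 1 point per library, with genes ordered by mean TPM in the reporter libraries; the 2 open circles are Egr2 in libraries with 0 counts, drawn at the foot of the axis. Blue and orange points lie apart for every member but Btg2.

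Among the AP-1 genes, Fos (ENSMUSG00000021250, chr12:85473890-85477273) encodes the partner that cannot pair with itself and needs a JUN protein. It had a lowest, median and highest value of 99.3, 133 and 251 CPM in the 6 reporter libraries and of 2.09, 3.06 and 4.67 CPM in the 6 Smad1/5 libraries. The lowest reporter library was far above the highest 2i library. The difference was 48.7-fold (log2 fold change 5.61 ± 0.32, SE, edgeR adjusted p = 9.6e-09). Fosb (ENSMUSG00000003545, chr7:19302696-19310051), its close relative, had 30.9, 36.8 and 84.8 CPM against 0.0593, 0.486 and 1.22 CPM (6.44 ± 0.49, adjusted p = 1e-07). The 2i values rest on 2 to 45 counts per library, and without FL replicate 2, which held the 45 counts, the log2 fold change became 8.13.

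The JUN partners differed less. Jun (ENSMUSG00000052684, chr4:95049034-95052222), which can form AP-1 with itself, had a lowest, median and highest value of 33.4, 40.4 and 68.1 CPM in the reporter libraries and of 7.27, 13.3 and 17.8 CPM in 2i. That is 3.67-fold (log2 1.87 ± 0.17, SE, edgeR adjusted p = 5.7e-07). Junb (ENSMUSG00000052837, chr8:84974484-84978718), which often limits JUN activity, had 74.5, 102 and 114 CPM against 15.7, 17.6 and 20.3 CPM, or 5.6-fold (2.49 ± 0.11, adjusted p = 7.3e-10). Neither gene's libraries overlapped between the experiments. Both overlap a gene on the opposite strand: Jun the antisense gene Junos (8 to 31 counts per library) and Junb the peroxiredoxin gene Prdx2 (4553 to 10863 counts). No source used here states whether the counting took strand into account, and shared reads may then not be told apart.

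The balance among the Fos, Fosb, Jun and Junb transcripts, compared per length, was therefore not the same in the 2 experiments. Fos, Fosb, Jun and Junb summed to between 264 and 420 TPM in the reporter libraries and to between 35.3 and 49.0 TPM in the Smad1/5 libraries. Fos and Fosb together made up 32.9% to 51.7% of that sum in the reporter cells and 3.86% to 10.6% in 2i. Junb, the largest part of this sum in 2i, made up 37.3% to 55.7% in the reporter cells and 60.0% to 76.7% in 2i. The share of Jun was 9.58% to 12.8% against 17.3% to 36.2%. No library of 1 experiment reached the range of the other for any of these shares. The shares describe RNA only, and other AP-1 genes were left out of the sum. Of these, Jund averaged 169 CPM in the reporter and 125 CPM in the Smad1/5 libraries, and Fosl2 10.9 and 0.811 CPM.

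**Figure D2:**
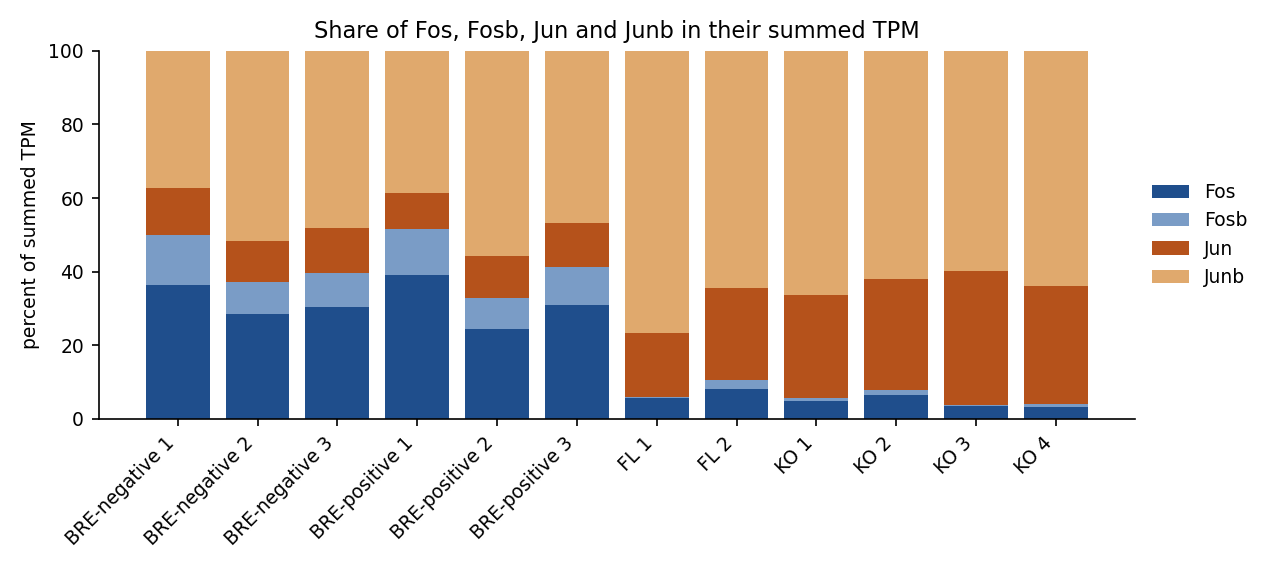
Share of Fos, Fosb, Jun and Junb in their summed TPM, in percent, 1 bar per library. The blue part, Fos with Fosb, spans 32.9% to 51.7% in the 6 reporter libraries and at most 10.6% in the 6 Smad1/5 libraries.

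The EGR factors bind GC-rich sites and are classic targets of SRF and ERK. Egr1 (ENSMUSG00000038418, chromosome 18) had a lowest, median and highest value of 33.4, 38.0 and 48.7 CPM in the reporter libraries and of 0.119, 0.857 and 1.09 CPM in 2i (log2 fold change 5.96 ± 0.30, SE, edgeR adjusted p = 3.2e-09). All 6 reporter libraries stood far above all 6 Smad1/5 libraries. Without FL replicate 2 the value was 6.95. Egr2 (ENSMUSG00000037868, chr10:67535475-67542188), the least abundant member, had 1044 counts in all over the reporter libraries and 14 over the 2i libraries. Its reporter values were 3.89, 5.4 and 7.05 CPM (lowest, median and highest). In 2i it had 0 counts in FL replicate 1 and KO replicate 1, which allows up to 3 counts or 0.089 and 0.102 CPM, and at most 6 counts elsewhere. The fitted log2 fold change of 6.26 ± 0.39 (adjusted p = 2.2e-08) therefore depends on the prior count and on FL replicate 2, without which it was 8.24. On the log2(TPM + 1) scale, which compresses low values, limma put Fosb at 4.62, Egr1 at 3.65 and Egr2 at 1.47.

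Atf3 (ENSMUSG00000026628, chr1:191170296-191218039), a stress-induced repressor, had a lowest, median and highest value of 34.8, 51.5 and 65 CPM in the reporter libraries and of 1.98, 3.20 and 5.32 CPM in 2i. It was 14.5-fold higher without overlap (log2 3.86 ± 0.23, SE, edgeR adjusted p = 1.5e-08). Zfp36 (ENSMUSG00000044786, chr7:28376784-28380253), whose protein shortens the life of many early transcripts, had 13.1, 15.9 and 17.2 CPM against 2.77, 3.43 and 3.89 CPM. Its difference was 4.67-fold (2.22 ± 0.12, adjusted p = 5.3e-09). These 2 genes also overlap a gene on the opposite strand. For Atf3 it is the RNA gene Gm24748 (0 to 1 counts per library), and for Zfp36 the antisense gene Gm44710, which had no counts row.

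Ier2 (ENSMUSG00000053560, chr8:84661331-84662852) was high in every library. Its lowest, median and highest values were 89.8, 109 and 132 CPM in the reporter libraries and 51.8, 55.0 and 58.4 CPM in 2i, a difference of 2.02-fold (log2 1.02 ± 0.08, SE, edgeR adjusted p = 1e-07). Btg2 (ENSMUSG00000020423, chr1:134075170-134079120) had 47.7, 71.2 and 92.1 CPM against 35.1, 56.1 and 72.2 CPM. It was the 1 member whose libraries overlapped, and 9 of 10 did not, beside 21.4% of all genes tested that were higher without overlap. The Btg2 difference (0.52 ± 0.16, adjusted p = 0.013) did not pass the threshold without reporter pair 1 (0.30, adjusted p = 0.067) or without FL replicate 1 (0.46, adjusted p = 0.063).

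Compared per length, Ier2 led in both experiments, at 202 ± 33.2 TPM in the reporter and 98.6 ± 6.37 TPM in the Smad1/5 libraries (SD, n = 6 each). In the reporter libraries Junb (148 ± 14.1), Fos (105 ± 35.8), Btg2 (71.2 ± 16.9), Atf3 (51.4 ± 14.1), Jun (37.6 ± 8.21), Fosb (35.1 ± 13.8) and Zfp36 (24.2 ± 1.99 TPM) followed, and from Ier2 to Zfp36 each gene's libraries overlapped those of the next. Egr1 (14.6 ± 1.35) and Egr2 (1.87 ± 0.373 TPM) stood apart at the end. In 2i the order was Ier2, Btg2 (54.9 ± 15.6), Junb (26.3 ± 3.09), Jun (11.4 ± 3.63), Zfp36 (5.13 ± 0.813), Atf3 (3.32 ± 1.26), Fos (2.07 ± 0.622), Fosb (0.405 ± 0.297), Egr1 (0.271 ± 0.144) and Egr2 (0.0327 ± 0.0207 TPM). There the neighbours Zfp36 and Atf3, Atf3 and Fos, Fosb and Egr1, and Egr1 and Egr2 overlapped. Fos thus held the third place in the reporter cells and the seventh in 2i.

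The other genes of the pathway were read as lists by role. Of 34 other immediate early genes, 26 were higher in the reporter libraries and 2 lower by the same edgeR test, with a median log2 fold change of 1.32. The largest differences were those of Egr3 (6.92 ± 0.75, SE), Fosl1, another FOS-family partner (5.11 ± 0.49), the orphan receptor gene Nr4a3 (4.43 ± 0.78) and Egr4 (3.98 ± 0.40). These 4 averaged at most 0.0807 CPM in 2i, so their folds are loose: over the alternatives they ranged from 1.45 to 8.02 for Egr3, 2.04 to 6.90 for Fosl1, 0.15 to 6.23 for Nr4a3, whose libraries overlapped, and 1.15 to 4.40 for Egr4. Of 13 feedback and target genes of ERK, 11 were higher and 2 lower (median 1.66). The ERK inhibitors Spry4 (3.46 ± 0.21), Dusp4 (3.16 ± 0.17) and Dusp6 (3.15 ± 0.20) and the ETS factor gene Etv4 (2.82 ± 0.15) led that list. The kinases and factors upstream were split, with 6 higher and 6 lower of 19 (median -0.08), near the shares of all genes. Crem (-1.22 ± 0.12) and Elk1 (-1.04 ± 0.07) were lower, and Srf (1.02 ± 0.08) and the JNK gene Mapk8 (0.98 ± 0.07) higher.

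Lists of other stress programmes differed less evenly. Heat shock and integrated stress response genes gave 6 higher and 4 lower of 18 (median -0.04), with the co-chaperone gene Bag3 at -1.81 ± 0.11, the inducible Hsp70 gene Hspa1a at 1.38 ± 0.23, Hspb1 at -1.14 ± 0.09 and Hspa1b at 1.12 ± 0.17 (log2 fold change, SE). The p53 target genes gave 5 higher and 3 lower of 14, with Pmaip1 at 1.74 ± 0.16 and Fas at 2.52 ± 0.40. Fas was low in both experiments (0.674 and 0.108 CPM), and its value ranged from 0.76 to 2.84 over the alternatives.

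**Figure D3:**
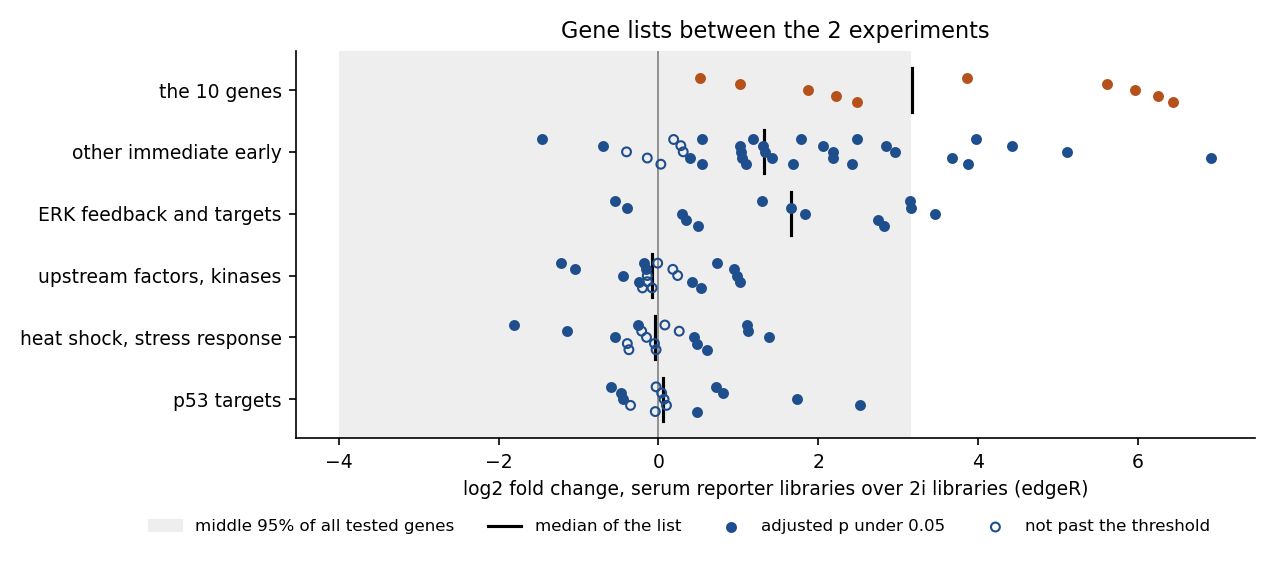
Log2 fold change between the reporter and the Smad1/5 libraries (edgeR) for each gene of 6 lists, 1 point per gene; filled points passed an adjusted p under 0.05, the black line is the list median and the grey band holds the middle 95% of all tested genes. The 10 members have a median of 3.17, the other immediate early genes of 1.32 and the ERK feedback and target genes of 1.66.

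Transcripts of other cells moved with this comparison. Of 17 feeder fibroblast markers 16 were higher in the reporter libraries (median log2 fold change 4.81), beside 33.7% of all genes tested. Their summed level was 1340.8 to 1839.5 CPM there and 521 to 689 CPM in the Smad1/5 libraries. Most of both sums was Fn1, which stood at 1427.6 and 563 CPM on average. Among defining feeder markers, Col1a2 was at 26.4 and 0.172 CPM and Postn at 6.08 and 0.0136 CPM, and Postn, Lum and S100a4 were at 0 in all 4 KO libraries. Of the 4 blood markers, the macrophage gene Lyz2 was at 0.683 to 15 CPM in the reporter libraries and at most 0.109 CPM in the others, with the globin genes Hbb-bs and Hba-a1 at 0 in the former. The summed level of 9 embryonic stem cell markers was 3205.8 to 3983.2 CPM in the reporter libraries and 3390.9 to 4250.1 CPM in the Smad1/5 libraries. Single markers differed in both directions, with 4 called higher and 4 lower. Klf4, for example, averaged 441 CPM in the reporter and 94.4 CPM in the Smad1/5 libraries, and Zfp42 121 and 595 CPM. The part of these other cells in the members' levels was not tested, and in bulk RNA fewer cells of a type and less RNA per cell cannot be told apart.

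Within the reporter line, the question was whether the genes differ between cells with and without BMP reporter activity that were collected together. The differences were small and only a few members passed. With the pair as a block, edgeR called 3 of 10 members lower and 0 higher (Egr2, Jun and Ier2), beside 2.97% of 15435 genes called in either direction and 1.02% called lower (1.96% were called higher). Unadjusted direction, read in CPM, was broader: 8 of 10 were lower in all 3 pairs, as were 22.7% of all genes tested. Btg2 was higher in all 3, as were 17.6% of all genes. In TPM, Jun, Junb, Egr1 and Zfp36 were not lower in pair 2, with Junb at 153 TPM in BRE-negative and 164 TPM in BRE-positive cells. By edgeR the median log2 fold change was -0.20 for the members and -0.001 for all genes.

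Egr2 was at 7.05, 6.42 and 5.99 CPM in BRE-negative pairs 1, 2 and 3 and at 4.19, 4.81 and 3.89 CPM in the matching BRE-positive cells. All 3 BRE-negative libraries lay above all 3 BRE-positive ones. The log2 fold change was -0.58 ± 0.12 (SE, edgeR adjusted p = 0.019). Zfp36, at 16.8, 17.2 and 16.1 CPM against 14.9, 15.6 and 13.1 CPM, was the other member without overlap, but its difference of -0.19 ± 0.08 did not pass (adjusted p = 0.22). Of all genes tested, 3.61% were lower in BRE-positive cells without overlap.

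Jun was at 68.1, 38.5 and 42.3 CPM in BRE-negative and 45, 35.7 and 33.4 CPM in BRE-positive cells. The groups overlapped, and the gap within pairs ranged from 1.08-fold in pair 2 to 1.51-fold in pair 1 (log2 -0.34 ± 0.08, SE, edgeR adjusted p = 0.032). Ier2, at 104, 132 and 122 CPM against 89.8, 114 and 101 CPM, had gaps of 1.15, 1.16 and 1.21-fold (-0.22 ± 0.05, adjusted p = 0.039). The Ier2 call was lost without pair 2 (-0.23, adjusted p = 0.092), without pair 3 (-0.19, adjusted p = 0.44) and with offsets for gene length and GC (-0.13, adjusted p = 0.13).

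Fos was at 251, 128 and 137 CPM in BRE-negative and 239, 99.3 and 111 CPM in BRE-positive cells. Its gap was 1.05-fold in pair 1 and 1.29 and 1.23-fold in pairs 2 and 3 (log2 -0.23 ± 0.06, SE, edgeR adjusted p = 0.065). Fosb, at 84.8, 35.6 and 37.9 CPM against 69.7, 30.9 and 33.3 CPM, had -0.21 ± 0.06 (adjusted p = 0.064). In both genes pair 1 stood far above the other pairs in both kinds of cell, and the gap within a pair was much smaller than the gap between pairs.

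Junb (-0.16 ± 0.06, SE, edgeR adjusted p = 0.19) and Egr1 (-0.10 ± 0.06, adjusted p = 0.41) were lower in CPM in each pair without passing. Egr1, for example, was at 48.7, 37.1 and 38.8 CPM against 47.5, 34.3 and 33.4 CPM. Atf3, at 55.2, 34.8 and 58.2 CPM against 47.8, 35.6 and 65 CPM, was lower in 1 pair and higher in 2 (0.01 ± 0.07, adjusted p = 0.96). Btg2, at 89.8, 47.7 and 63.1 CPM against 92.1, 53.2 and 79.2 CPM, went the other way from most members (0.18 ± 0.06, adjusted p = 0.13).

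The number of members that passed depended on pair 1. Without it, edgeR called 7 of 10 members, with Egr2, Fos, Fosb, Ier2, Jun and Junb lower and Btg2 higher. Of all genes, 14.4% were called and 7.19% called lower. That fit rests on only 2 pairs, and the number of genes called rose from 459 to 2225. With the length and GC offsets 4 were called, Egr2, Fosb and Jun lower and Btg2 higher, and DESeq2 called 2, Jun and Ier2. Without the block 0 members passed in edgeR, and 1 had an unadjusted p under 0.05.

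**Figure D4:**
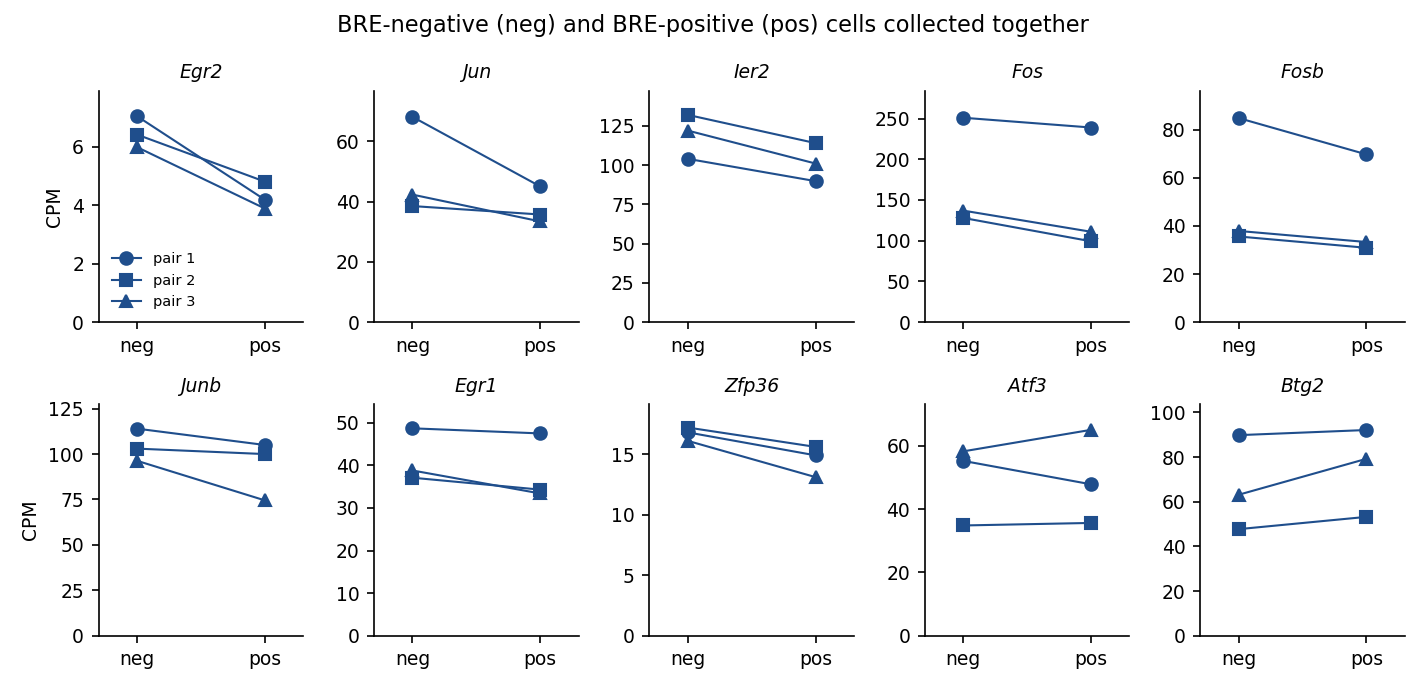
CPM of each member in BRE-negative (neg) and BRE-positive (pos) cells, with a line joining the 2 libraries of each of the 3 pairs; each panel has its own axis from 0. Lines fall in all 3 pairs for 8 genes and rise in all 3 for Btg2, while Fos and Fosb of pair 1 lie far above the other pairs.

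The related lists moved little between the reporter groups. Their median log2 fold changes were -0.025 for the other immediate early genes, 0.06 for ERK feedback and target genes and -0.02 for upstream genes. The heat shock and stress response genes had a median of -0.095, with 15 of 18 below 0 and 2 above. For the p53 targets it was 0.125, with 13 of 14 above 0 and 1 below. The same edgeR test called 1.96% of all genes higher and 1.02% lower. Of 34 other immediate early genes 2 were lower and 0 higher. These were the cytokine feedback gene Socs3 (-0.27 ± 0.05, SE, log2) and the matricellular gene Cyr61 (-0.21 ± 0.05). Of 13 ERK feedback and target genes, Phlda1 (0.52 ± 0.11) and Spry2 (0.23 ± 0.05) were higher and Ccnd1 (-0.26 ± 0.06) lower. Among 19 upstream genes Braf alone passed (0.36 ± 0.06, higher), among 14 p53 targets Trp53inp1 alone (0.26 ± 0.06, higher), and among 18 heat shock and stress response genes none by edgeR. Of 17 feeder markers 5 were also lower in BRE-positive cells, with a list median of -0.42. Acta2 (-1.12), Tagln (-0.57), Lox (-0.54) and Col1a2 (-0.48) were the 4 largest falls among the 5 that passed, although the summed level, mostly Fn1, was 1340.8 to 1682.5 CPM in BRE-negative and 1427.7 to 1839.5 CPM in BRE-positive cells. Their part in the members' differences was not tested.

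The Smad1/5 comparison asked what losing SMAD1 and SMAD5, which BMP signalling activates, does in 2i. The FL libraries held 643 and 665 counts of Smad1, and the KO libraries 427, 619, 489 and 373. For Smad5 these were 1136 and 1153, against 880, 893, 1176 and 1046. Counts over the whole gene do not check a deletion of some exons, so these values leave the genotype labels unchecked. Of the members, 9 could be tested. edgeR called 1, Btg2, higher in KO and 0 lower, beside 5.03% of 15933 genes called with 1.85% higher and 3.18% lower. The members' median log2 fold change was 0.03, and that of all genes 0.012.

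The FL libraries held 35.1 and 41.7 CPM of Btg2, and the KO libraries 55.7, 56.5, 69.7 and 72.2 CPM. Every KO library was above both FL libraries. The difference was 1.66-fold (log2 0.73 ± 0.14, SE, edgeR adjusted p = 0.031). The call was lost without FL replicate 1 (adjusted p = 0.25), FL replicate 2 (0.089), KO replicate 3 (0.083) or KO replicate 4 (0.076), while the log2 value stayed between 0.61 and 0.85 in those fits. It was also lost in the 12-library fit (0.12), the 3 limma fits (0.14 to 0.21), the replicate block (0.10) and 4 of 6 line splits (0.057 to 0.063), so 13 of 22 alternatives ended it. The split with FL 1 beside KO 1 and 2 kept it (adjusted p = 0.00021).

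For Jun the FL libraries had 7.27 and 10.9 CPM and the KO libraries 13.5, 13.2, 17.4 and 17.8 CPM. It did not overlap between the groups and had the larger fold change (0.77 ± 0.21, SE), but edgeR's adjusted p was 0.079. DESeq2 put it at an adjusted p of 0.0080. With a block for parental line that places FL 1 with KO 1 and 2, it passed in edgeR (0.78, adjusted p = 0.0013), and in the other 5 possible line splits it did not. Ier2, at 51.8 and 53.2 CPM against 57.1, 54.3, 55.8 and 58.4 CPM, was the third member without overlap, with a small difference (0.10 ± 0.07). KO was higher without overlap for these 3 of 9 members and for 17.8% of all genes tested, and 34.7% of all genes did not overlap in either direction. For 9 genes that is little above the background.

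Fos had 3.14 and 4.67 CPM in the FL libraries, against 2.98, 3.68, 2.09 and 2.28 CPM in the KO libraries (log2 -0.50 ± 0.28, SE), and Atf3 at 3.26 and 5.32 CPM against 3.59, 3.15, 1.98 and 2.12 CPM (-0.67 ± 0.31). Both groups overlapped and neither gene passed in edgeR. Junb (0.03 ± 0.13, SE) and Zfp36 (0.01 ± 0.22) differed by less than the spread between libraries. Fosb (-0.45 ± 0.81, SE) and Egr1 (0.83 ± 0.67) had wide errors, and the 2 FL libraries themselves differed: Fosb had 2 and 45 counts there against 9 to 24 with the deletion, and Egr1 4 and 30 counts against 11 to 36. Egr2, with 0 and 4 counts against 0, 6, 2 and 2, was under the expression filter.

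**Figure D5:**
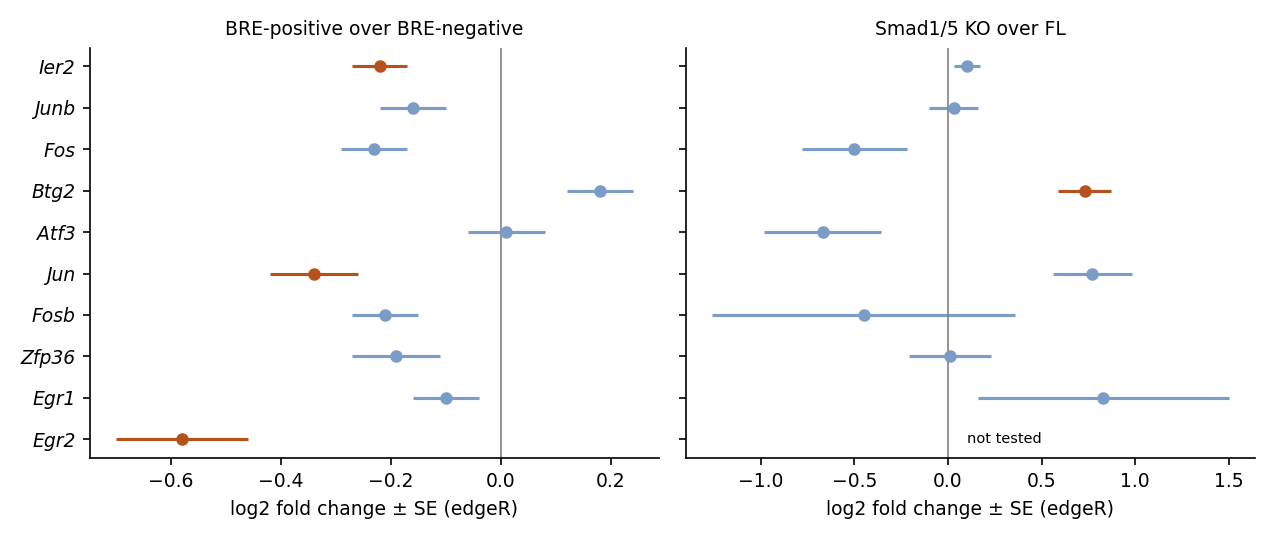
Log2 fold change ± SE (edgeR) of the members in BRE-positive over BRE-negative cells, with 3 pairs (left), and in Smad1/5 KO over FL cells, with 4 against 2 libraries (right); the panels have their own axes, and red points passed an adjusted p under 0.05. Egr2, Jun and Ier2 passed on the left and Btg2 on the right, and Egr2 was not tested on the right.

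In the same fit, 3 of the 29 tested other immediate early genes were higher in KO and 3 lower. Of all genes tested, 1.85% were called higher and 3.18% lower. Gadd45b (-1.26 ± 0.11, SE, log2) and Ier3 (-1.64 ± 0.37) fell, and Myc (1.26 ± 0.28) and Plk2 (1.01 ± 0.23) rose. No ERK feedback or target gene of 13 passed in edgeR, and 11 of 13 had a value above 0 (median 0.31). Of the upstream genes the SRF partner gene Elk3 alone passed (1.01 ± 0.17). Of 13 tested p53 target genes 4 were higher, as Btg2 was: Trp53inp1 (0.67 ± 0.14), Ccng1 (0.60 ± 0.09), Bbc3 (0.56 ± 0.12) and Aen (0.43 ± 0.08). None was lower, and the list median was 0.35. Whether p53 had a part in the Btg2 difference was not tested. Of 8 tested feeder markers none passed in edgeR.

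Libraries of 1 group also differed among themselves. Both libraries of reporter pair 1 lay above all 4 of pairs 2 and 3 for Fosb (2.24 times their mean), Fos (2.06), Jun (1.51), Btg2 (1.5), Egr1 (1.34) and Junb (1.17). For Egr2, Atf3, Zfp36 and Ier2 they overlapped. Of the 15435 genes tested, 22% had both libraries of pair 1 above the other 4 and 19.6% had both below. Of 13048 genes at 1 CPM or more, 6.17% were over 1.5 times higher in pair 1 on average, a size that Fosb, Fos and Jun reached. Lyz2 was at 1 and 0.683 CPM in pair 1 and at 10.8 to 15 CPM in the others, and the summed feeder markers of pair 1, at 1560.8 and 1427.7 CPM, were within the range of the others. The difference between collections was not tested.

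Among the 4 KO libraries, replicates 3 and 4 did not overlap 1 and 2 for 7 of the 9 tested members, as for 56.5% of the 15933 genes tested. With only 2 libraries on each side, many genes would part in this way by order alone. They were both below replicates 1 and 2 for Fos (0.656 times), Fosb (0.557) and Atf3 (0.608). They were both above them for Egr1 (1.64), Jun (1.32), Btg2 (1.27) and Zfp36 (1.19), and overlapped for Junb, Ier2 and Egr2. Whether these pairs are the 2 parental lines is not given in the labels.

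The genes whose pattern was most like the members' mean, by Pearson's r over the 12 libraries centred within each experiment, were Nod1 (r = 0.896), Uap1l1 (0.894), Rpain (0.884), R3hdm4 (0.878), Snx12 (0.863) and the ERK phosphatase gene Dusp4 (0.860), out of 11599 genes compared. The libraries of a pair share their collection, so these values describe the 12 libraries only. The members did not all share 1 pattern. Against the mean of the other members over the 12 libraries, r was 0.81 for Fosb, 0.71 for Egr1, 0.66 for Jun and 0.61 for Egr2. It was 0.45 for Btg2, 0.43 for Fos, 0.08 for Junb, 0.03 for Atf3, -0.17 for Ier2 and -0.23 for Zfp36. In 2i, Fosb had at most 45 counts in any library, Egr1 36 and Egr2 6. The r values over the 12 libraries, and the members' mean behind the 6 genes above, therefore rest partly on low counts. Within the 6 reporter libraries, Jun (0.95), Egr1 (0.94), Fosb (0.92) and Fos (0.91) varied together. There Junb (0.60), Btg2 (0.55), Egr2 (0.38) and Zfp36 (0.36) followed less, and Atf3 (0.17) and Ier2 (-0.45) did not follow them.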

How the data were processed

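Total RNA libraries were made with a stranded kit after ribosomal RNA removal, per the labels' protocols. Per the submitters' processing notes, the builds were mm10 and GRCm38.p4, and DESeq2 1.6.3, featureCounts 1.4.6 and STAR 2.4.1d were among the tools. The authors deposited raw counts for 39179 Ensembl genes and a TPM table, used here as a normalised signal as deposited. No source used here states the annotation release, or whether the counting used strand.

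Groups came from sample titles. Counts were tested with edgeR 4.0.16 (R 4.3.3; quasi-likelihood, TMM, expression filter with minimum count 10 and total 15), adjusted by Benjamini-Hochberg over all tested genes, with a threshold of 0.05. The BRE fit used the pair as a block: same-numbered libraries deviated together (correlation across genes 0.636, 0.486 and 0.423), as the series states a paired collection. The KO fit had no block and counts 4 KO libraries of 2 lines as independent. The fit between experiments used all 12 libraries and counts the 6 paired reporter libraries as independent. The SE beside an edgeR value was derived as the absolute log2 fold change divided by the square root of the test's F statistic. CPM uses TMM-scaled library sizes over the 12 libraries. TPM, which is per length, served to compare genes, as an alternative scale and as a second reading of the direction within pairs. Separate cultures are not described, so p-values measure only how these libraries spread, which may be technical. Counting error alone is covered by the upper limit of 3 counts for 0.

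Alternatives were DESeq2 1.42.0, limma 3.58.1 on log2(TPM + 1) and log2(TPM + 0.1), other scalings, filters and blocks, length and GC offsets, and each replicate left out. The fits were tested on simulated data. Coordinates are GENCODE M21 on GRCm38, 1-based, and promoter windows RefSeq. All members are named, and of every other list up to 4 called genes with the largest change. The 6 genes most like the members' mean were taken from genes whose mean log2 CPM reached 1. Members and lists were chosen with earlier results of these data known.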

Additional observations from a re-analysis of the deposited data

How the results depend on the processing

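Between the 2 experiments, every member kept its direction in each alternative run, and 9 or 10 passed. The exception to passing was Btg2, in the 2 fits given above. Across the alternatives the log2 fold change ranged from 4.62 to 8.13 for Fosb, from 3.65 to 6.95 for Egr1 and from 1.47 to 8.24 for Egr2, the members with at most 45 counts per library in 2i. Egr2 was under the filter at a mean TPM of 1 in 2 limma fits and has no value there.

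Between the reporter groups, 3 members and 459 genes passed. Without the replicate block, in the fit of all 12 libraries and in the 3 limma fits, 0 members and 0 genes passed. At an unadjusted p under 0.05 the unblocked edgeR fit held 1 member and 343 genes, the 12-library fit 1 and 516, and the limma fits 4 members each and 2679 to 4189 genes. With no count filter 5 members and 1010 genes passed. Leaving out 1 pair gave 2 to 7 members and 200 to 2225 genes. Atf3 changed sign with no filter (-0.01) and ranged from -0.07 to 0.11 with a pair left out. The cause was not tested.

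In the Smad1/5 comparison, 1 member and 801 genes passed, and Fosb and Egr1 have no value in the fits filtered at 1 CPM or a mean TPM of 1. DESeq2 called 2 members and 1498 genes, and no count filter gave 2 members. The fit of all 12 libraries and the 3 limma fits called 0 members, with 2 under an unadjusted p of 0.05 in each, and the limma fits 97, 198 and 360 genes. The replicate numbers do not pair these libraries (correlation 0.223 for FL 1 with KO 1 and -0.378 for FL 2 with KO 2). FL 1 deviated with KO 1 and 2 (0.223 and 0.378) and FL 2 with KO 3 and 4 (0.344 and 0.31), a hint from the data and not from the labels. With the replicate block 0 members and 0 genes passed (2 and 2589 at an unadjusted p under 0.05), Fosb was 0.37, Junb -0.03 and Zfp36 -0.10. Blocks for every possible split into parental lines gave 2 members and 2927 genes with FL 1 beside KO 1 and 2, and 498 genes beside KO 3 and 4. For KO 1 and 3, 1 and 4, 2 and 3, and 2 and 4 they gave 0 members (2 unadjusted) and 250, 325, 380 and 419 genes. Leaving out 1 library gave 0 to 1 members and 0 to 857 genes, with 3 members and 1948 genes unadjusted in the fit without FL replicate 1. Junb was -0.01 in the limma fits, and Zfp36 -0.01 in the limma fits and at a 1 CPM filter and -0.0025 with no filter. With a library left out, Fosb ranged from -1.36 to 2.91, Junb from -0.07 to 0.13 and Zfp36 from -0.22 to 0.28. The cause was not tested.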
